A study of Homo sapiens with 18 samples.

Results

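Cells that burn glucose by glycolysis make lactate and protons, and both have to leave the cell. The 6 genes described here encode proteins of that step: SLC16A1 (MCT1) and SLC16A3 (MCT4), which carry lactate together with a proton across the plasma membrane, BSG (basigin), the chaperone that brings both carriers to the membrane, CA2 and CA12, carbonic anhydrases that interconvert carbon dioxide and bicarbonate in the cytosol (CA2) and at the outer cell surface (CA12), and SLC4A7, a sodium bicarbonate cotransporter that brings bicarbonate into the cell. They were chosen by name, and each was found as the row of the deposited table that carries its Entrez gene number, so that 6 of 23536 features were taken and all 6 were measured on every array. In several cell types low oxygen raises SLC16A3 and CA12 through the hypoxia-inducible transcription factors (HIF), whereas SLC16A1 is widely expressed in dividing cells that also take lactate up.

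The RNA came from the human embryonic stem cell (hESC) lines H9, HS360 and HS401. Each line was grown without feeder cells on Matrigel, a basement membrane extract, in mTeSR1 medium under normoxia (21% O2) or hypoxia (4% O2) for 2 h, 24 h or 7 d, and each of the 6 groups held 3 arrays, 1 from each line. No group had another treatment, and the stock cultures of the lines had been kept on human foreskin fibroblasts. Plates for the 7 d samples entered hypoxia sooner after seeding than plates for 24 h and 2 h, so the 3 time points also differ in the time spent in normoxia beforehand. The arrays (Human Exon 1.0 ST) give 1 intensity for each gene, and all levels below are log2 intensities, on which a difference of 1 is a doubling. A bulk measurement cannot tell fewer cells of a type from less RNA per cell.

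Of 15 hESC marker genes fixed as a list 14 were measured. All 14 had a mean level above the median of all features, and their mean per array lay between 9.71 and 10.52. POU5F1 was the nearest to that median, at percentile 54.6, and ranged from 6.43 to 8.66 on single arrays. The 17 fibroblast markers had array means between 8.89 and 10.08 at 2 h and 24 h and between 7.84 and 8.63 at 7 d. Of 11 measured trophoblast markers 1, CDX2 at percentile 63.3, had a mean level above the median, and 5 were among the dimmest 25% of features. The array means of the 11 lay between 5.68 and 6.32. Of 11 mesendoderm markers 10 had a mean level above the median, the highest being CER1 at percentile 95.1 (6.48 to 12.05). Of 11 neuroectoderm markers 5 did, the highest being NES at percentile 89.6. The dim end of the distribution set 5 arrays apart: both HS401 arrays at 24 h, the normoxic HS401 array at 2 h, and the hypoxic H9 arrays of 2 h and 24 h. Their lower quartile, the log2 level below which the dimmest 25% of features lie, ranged from 5.64 to 5.70, and that of the other 13 ranged from 5.89 to 6.17. The oxygen differences of SLC16A3 are given with and without these 5 arrays, and those of the other members where the direction changed. Values of the related genes, LDHA among them, are given with all arrays only.

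The sequence around the start site was examined for both forms of the HIF core motif, ACGTG and GCGTG. It was also examined for CACGTG (the E-box, which holds ACGTG). Each was sought on both strands, in windows of 250 bases before to 50 after each start in RefSeq (GRCh38.p14). Windows were given for 4 of the 6 genes, 10 windows in all, and 6 of these held ACGTG or GCGTG. Of all 35116 windows 21.4% held ACGTG, 36.5% GCGTG, 48.4% either and 7.26% CACGTG, so a match is common. A window is shown for each of the 4 genes, the one with most matches or, for SLC16A3, the only one of its 5 with ACGTG, because SLC16A3 was the gene whose level differed most between oxygen levels. Capitals mark ACGTG and GCGTG on either strand (read as CACGT or CACGC where they lie on the other strand).
SLC16A3 (chr17:82228792-82229091, plus strand): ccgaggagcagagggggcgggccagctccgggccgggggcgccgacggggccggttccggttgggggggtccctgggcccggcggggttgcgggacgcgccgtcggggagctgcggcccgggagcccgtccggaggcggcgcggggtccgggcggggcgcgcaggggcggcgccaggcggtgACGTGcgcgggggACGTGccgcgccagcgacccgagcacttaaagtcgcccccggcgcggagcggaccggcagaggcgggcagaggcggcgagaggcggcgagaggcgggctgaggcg
BSG (chr19:572346-572645, plus strand): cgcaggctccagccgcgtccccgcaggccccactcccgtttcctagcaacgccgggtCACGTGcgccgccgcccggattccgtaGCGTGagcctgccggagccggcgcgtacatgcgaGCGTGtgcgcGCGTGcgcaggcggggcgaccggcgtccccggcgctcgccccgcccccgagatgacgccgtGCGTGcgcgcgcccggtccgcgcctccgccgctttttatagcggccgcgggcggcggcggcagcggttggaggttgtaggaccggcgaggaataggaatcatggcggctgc
CA12 (chr15:63381797-63382096, minus strand): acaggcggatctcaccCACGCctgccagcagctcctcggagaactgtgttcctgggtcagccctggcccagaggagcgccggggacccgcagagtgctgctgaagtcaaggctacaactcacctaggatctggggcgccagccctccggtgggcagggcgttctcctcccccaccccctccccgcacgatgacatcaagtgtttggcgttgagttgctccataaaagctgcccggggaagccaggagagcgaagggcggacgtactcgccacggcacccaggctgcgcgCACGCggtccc
SLC4A7 (chr3:27484335-27484634, minus strand): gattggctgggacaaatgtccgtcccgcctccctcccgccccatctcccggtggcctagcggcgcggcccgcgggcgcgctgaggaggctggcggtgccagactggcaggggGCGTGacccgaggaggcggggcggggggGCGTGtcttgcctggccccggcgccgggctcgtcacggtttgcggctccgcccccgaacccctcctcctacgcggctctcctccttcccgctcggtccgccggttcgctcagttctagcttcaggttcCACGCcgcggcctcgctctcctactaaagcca

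The SLC16A3 window shown held ACGTG at 2 places, with first bases at -68 and -55 from the start site, and no GCGTG. It starts inside the SLC16A3 gene as RefSeq draws it (chromosome 17, 82217934 to 82240086), since the gene has several starts. This window was picked for its ACGTG, so that match does not set SLC16A3 apart from the other genes. The SLC16A3 window with most matches, starting at 82234649, held GCGTG at 3 places (-216, -89 and -22). The one starting at 82235524 held GCGTG at -165. The BSG window held a CACGTG at -193, which holds ACGTG on both strands, and GCGTG at 4 places. The CA12 window held GCGTG at 2 places (-234 and 40) and the SLC4A7 window at 3 (-138, -110 and 19), and neither held the ACGTG form. A match in a window is a description of letters and says nothing of binding in these cells.

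SLC16A3 was higher in hypoxia from 24 h on. At 2 h the normoxic arrays of H9, HS360 and HS401 read 9.27, 9.76 and 9.54, and the hypoxic arrays 9.64, 9.49 and 9.83. The groups overlapped, and HS360 was the 1 line in which the hypoxic culture was lower. The difference was 0.13 ± 0.22 (SE from limma, pooled over the 6 groups, 3 lines), with a 95% interval from -0.34 to 0.60. At 2 h no member passed the study's own thresholds, which are a fold change above 1.5 together with a p below 0.01 before adjustment, and 0.085% of all features did.

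At 24 h SLC16A3 read 9.71, 9.29 and 9.41 under normoxia in H9, HS360 and HS401, and 10.76, 9.76 and 10.57 under hypoxia. Every hypoxic array lay above every normoxic one, as for 1.63% of all features, with H9 and HS401 more than doubled and HS360 at 1.39-fold. The difference was 0.89 ± 0.22 (1.86-fold, 95% interval 0.42 to 1.37 on the log2 scale). It passed the study's thresholds, as did 0.421% of all features. The p adjusted over all 23536 features was 0.504, outside the threshold of 0.05 that 0.00425% of features passed.

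Both high hypoxic arrays at 24 h, H9 and HS401, belong to the 5 arrays with a low lower quartile. Without those 5, which leaves HS360 as the only hypoxic array and HS360 and H9 as the normoxic ones, the 24 h difference was 0.33, a value without a spread of its own, since the lone hypoxic array is assumed to vary like the other groups. The HS360 pair itself differed by 0.47. With all arrays and the lower quartile of each as a covariate the 24 h difference was 0.89 ± 0.22 (adjusted p = 0.291). The part of the array property in the 24 h value was not tested further.

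At 7 d, where none of the 5 arrays falls, SLC16A3 read 9.40, 9.04 and 9.98 under normoxia and 10.50, 10.15 and 10.52 under hypoxia in H9, HS360 and HS401. The groups again did not overlap, as for 10.7% of all features in the same direction, and the 3 hypoxic arrays lay close together while the normoxic ones were spread over almost a whole log2 unit. The difference was 0.92 ± 0.22 (1.89-fold, 95% interval 0.44 to 1.39), with an adjusted p of 0.311, in a comparison where 0.0212% of features passed after adjustment. It passed the study's thresholds, as did 0.867% of all features, and was 0.92 ± 0.19 without the 5 arrays. The pairs differed by 1.10, 1.11 and 0.54 in the order H9, HS360 and HS401.

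Over the mean of the 3 time points SLC16A3 was 0.65 ± 0.13 higher in hypoxia (1.57-fold, 95% interval 0.37 to 0.92), and higher in 8 of 9 pairs of cultures of the same line and time. Of all features 2.49% were higher in 8 or 9 of the 9 pairs, and 0.183% passed the study's thresholds over the mean. The adjusted p was 0.0966, outside the threshold of 0.05, which 0.11% of features passed. It was 0.0474 when only features at or above the median level were tested and 0.0469 with the lower quartile as a covariate. Without the 5 arrays the mean difference was 0.41 ± 0.15 (adjusted p = 0.451) and no longer passed the study's thresholds.

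**Figure D1:**
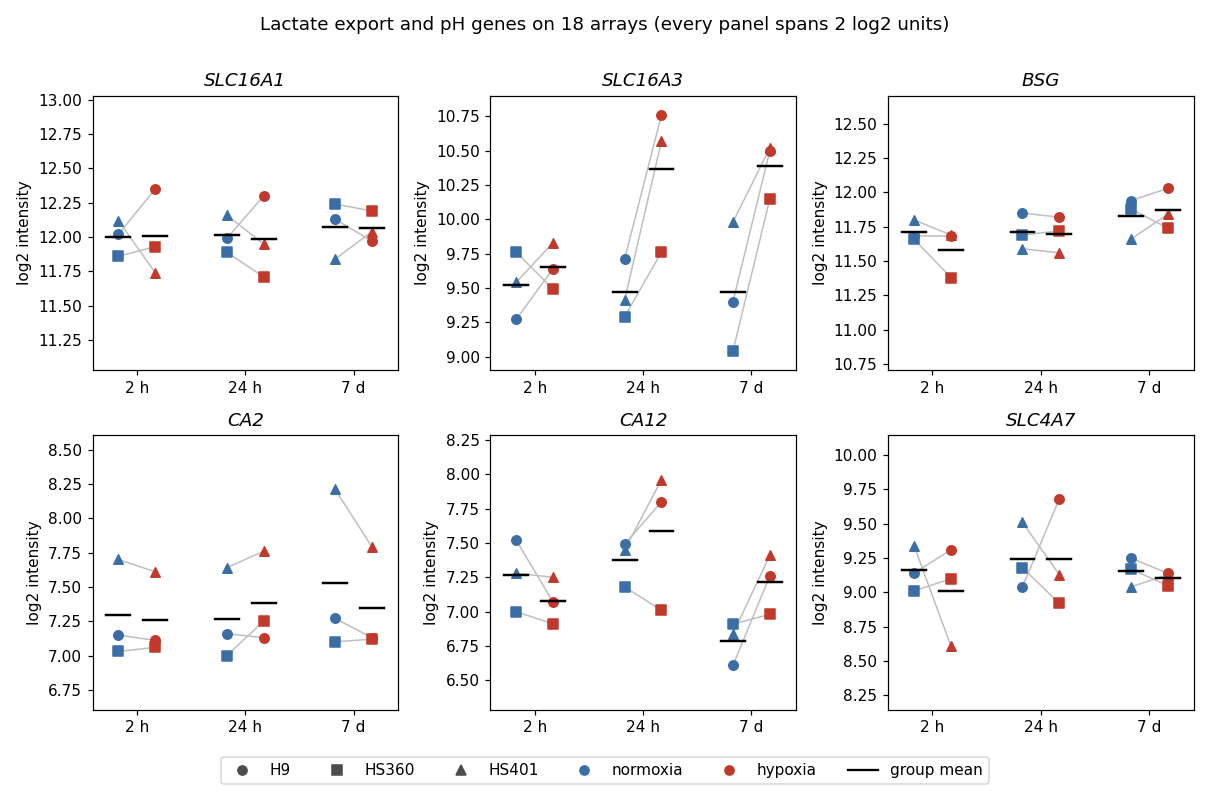
Log2 intensity of each of the 6 genes on all 18 arrays, by time point; grey lines join the normoxic (blue) and hypoxic (red) culture of 1 line, symbols give the line and black bars the mean of 3 arrays. In SLC16A3 every line joins a lower normoxic to a higher hypoxic point at 24 h and 7 d, while SLC16A1, BSG and SLC4A7 show lines in both directions.

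The effect of hypoxia on SLC16A3 was larger at 24 h than at 2 h by 0.76 ± 0.31 (95% interval 0.10 to 1.43) and larger at 7 d than at 2 h by 0.79 ± 0.31 (0.12 to 1.45). Neither difference held after adjustment over all features (adjusted p = 1 and 0.997), and 0 of 23536 features passed in these contrasts. Between 24 h and 7 d the effect differed by 0.02, with a 95% interval from -0.64 to 0.69. Within hypoxia SLC16A3 rose at the study's thresholds from 2 h to 24 h (0.71 ± 0.22, adjusted p = 1), as did 0.157% of features, and from 2 h to 7 d (0.74 ± 0.22, adjusted p = 0.0827), as did 1.82%. Both calls were lost without a replicate block for the line, without H9 and without HS401, the first also without the 5 arrays (0.35) and the second also after centring each array on its median (0.65). Within normoxia its level differed by -0.05 from 2 h to 24 h and by -0.05 from 2 h to 7 d, with intervals of -0.53 to 0.42 and -0.52 to 0.42.

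SLC16A1, the other lactate carrier among the members, did not pass in any oxygen contrast. At 2 h it read 12.02, 11.86 and 12.12 under normoxia and 12.35, 11.93 and 11.74 under hypoxia in H9, HS360 and HS401, so hypoxia was higher in H9 and lower in HS401. At 24 h it read 11.99, 11.89 and 12.16 under normoxia and 12.30, 11.71 and 11.95 under hypoxia, and at 7 d 12.13, 12.24 and 11.84 against 11.97, 12.19 and 12.04. The groups overlapped at every time point and 4 of 9 pairs were higher in hypoxia.

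The mean difference of SLC16A1 over the 3 time points was -0.01 ± 0.10, with a 95% interval from -0.22 to 0.20. An increase of the size measured for SLC16A3 lay outside that interval. The 5 arrays with a low lower quartile had a median of 12.16 (11.95 to 12.35) and the other 13 a median of 11.97 (11.71 to 12.24). Contrasts refitted with the lower quartile as a covariate are given below where a result changed. The part of that array property in the levels themselves was not tested. SLC16A1 was among the brightest features of every array, between the 99.64th and 99.87th percentile, and intensities of different genes do not give their relative amounts.

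BSG was nearly level. At 2 h it read 11.68, 11.66 and 11.80 under normoxia and 11.68, 11.38 and 11.69 under hypoxia in H9, HS360 and HS401. At 24 h the 3 pairs differed by -0.03, 0.03 and -0.03, and at 7 d by 0.09, -0.14 and 0.18. The largest deviation was the HS360 hypoxic array at 2 h, 0.28 below its normoxic partner. The mean difference was -0.03 ± 0.07, with a 95% interval from -0.18 to 0.12.

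Within hypoxia BSG was 0.29 ± 0.12 higher at 7 d than at 2 h (adjusted p = 0.216), a contrast in which the median of all features was itself 0.127 above 0. BSG varied little over the 18 arrays (SD 0.15), less than all but 8.91% of features. It lay between 11.38 and 12.03 throughout.

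The gene pairs were compared directly by an exact sign-flip permutation test over the 9 pairs of line and time, two-sided, for the 15 pairs of members with Benjamini-Hochberg adjustment over the 15. The 9 pairs come from 3 lines and are not fully independent. The effect of hypoxia on SLC16A3 exceeded that on BSG by 0.68 ± 0.45 (SD) in 9 of 9 pairs (exact p = 0.00391, the smallest the test allows). It exceeded that on SLC16A1 by 0.65 ± 0.57 in 8 of 9 pairs (exact p = 0.0156), on CA2 by 0.68 ± 0.52 (p = 0.0117), on SLC4A7 by 0.71 ± 0.60 (p = 0.0117) and on CA12 by 0.49 ± 0.40 (p = 0.0156). All 5 comparisons had an adjusted p of 0.0469. In the other 10 pairs of members the adjusted p lay at 0.352 or above. With 1 line left out the 6 remaining pairs allow no exact p under 0.0312, and 0 of the 15 adjusted p values stayed under 0.05. If only the 5 SLC16A3 comparisons reached that floor, none of them could have an adjusted p under 0.05. This count therefore cannot show whether the result rests on 1 line. With a line left out the 5 differences lay between 0.41 and 0.85.

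**Figure D2:**
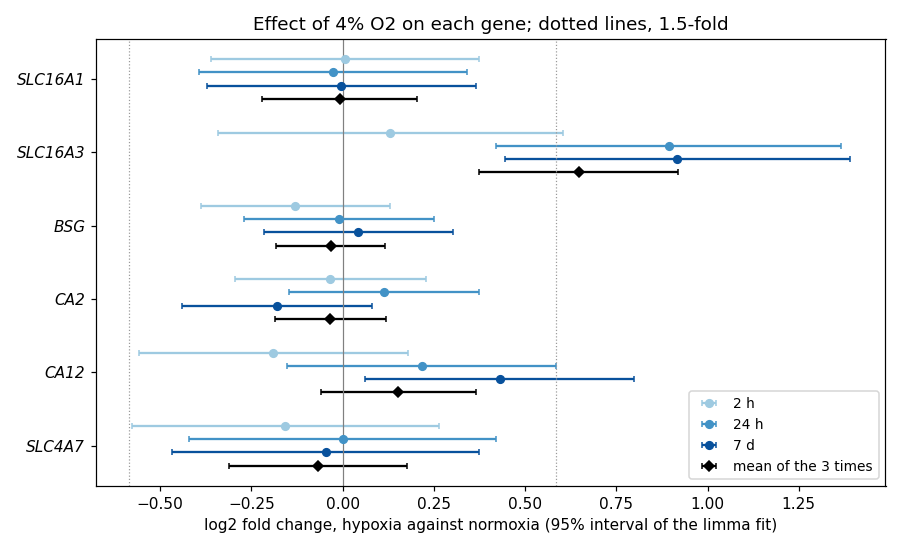
Log2 fold change of hypoxia against normoxia at each time point (circles) and over the mean of the 3 (diamonds) for the 6 genes, with the 95% interval of the limma fit; the dotted lines mark a 1.5-fold change. The intervals of SLC16A3 lie above 0 at 24 h, at 7 d and over the mean, that of CA12 at 7 d, and all others include 0.

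CA12, the carbonic anhydrase whose active site faces the outside of the cell, passed in no oxygen contrast and in 1 comparison of time points. At 2 h it read 7.52, 7.00 and 7.28 under normoxia and 7.07, 6.91 and 7.25 under hypoxia in H9, HS360 and HS401, lower in hypoxia in all 3 lines. At 24 h it read 7.49, 7.18 and 7.45 against 7.80, 7.01 and 7.96, higher in H9 and HS401 and lower in HS360. At 7 d it read 6.61, 6.91 and 6.84 against 7.26, 6.98 and 7.41, and here the hypoxic arrays all lay above the normoxic ones, a pattern that 10.7% of all features shared.

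The differences of CA12 were -0.19 ± 0.17 at 2 h, 0.22 ± 0.17 at 24 h (-0.22 without the 5 arrays) and 0.43 ± 0.17 at 7 d (95% interval 0.06 to 0.80, adjusted p = 0.619). None passed the study's thresholds. Within normoxia CA12 fell by 0.59 on the log2 scale from 24 h to 7 d (SE 0.17, adjusted p = 0.199), which passed the study's thresholds, as did 1.18% of features in that direction. That call was lost without a replicate block for the line, with the lower quartile as a covariate, without H9 (-0.44) and without HS401. From 2 h to 7 d the normoxic difference was -0.48 ± 0.17 (adjusted p = 0.258), and in hypoxia the difference from 2 h to 24 h was 0.51 ± 0.17, short of 1.5-fold.

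Fibroblast markers and CA12 moved in the same direction in some comparisons and not in others. In normoxia the mean of the 17 markers was 9.18 to 10.08 at 2 h, 9.12 to 9.52 at 24 h and 7.98 to 8.07 at 7 d, and in hypoxia 8.89 to 9.92, 9.21 to 9.37 and 7.84 to 8.63. In the 7 d pairs this mean was 0.55 higher in hypoxia in H9, 0.56 higher in HS401 and 0.14 lower in HS360, beside CA12 differences of 0.65, 0.57 and 0.07. None of the 17 had a mean level among the dimmest 25% of features, and 15 of the 17 lay above the median level of all features. At 2 h both were lower in hypoxia in all 3 lines. In the 24 h pairs the marker mean differed by 0.08, -0.13 and -0.15 in H9, HS360 and HS401. CA12 differed there by 0.31, -0.17 and 0.51. From 2 h to 7 d the markers fell at both oxygen levels, with CA12 differences of -0.48 in normoxia and 0.14 in hypoxia. The part of these markers in the CA12 values was not tested. For SLC16A3 the 7 d pairs differed by 1.10 (H9), 0.54 (HS401) and 1.11 (HS360), and the part of the markers was not tested here either.

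CA2, the cytosolic anhydrase, differed between lines and not detectably between oxygen levels. It read 7.11 to 7.27 on the 6 arrays of H9, with a median of 7.14, 7.00 to 7.25 on those of HS360, with a median of 7.08, and 7.61 to 8.21 on those of HS401, with a median of 7.73. Every HS401 array lay above every array of the other lines, as for 1.44% of all features. HS401 exceeded H9 by 0.63 ± 0.09 (adjusted p = 0.000297, in a contrast where 10.1% of features passed) and HS360 by 0.69 ± 0.09 (adjusted p = 0.000155, where 13.4% passed). The F test over the 3 lines gave an adjusted p of 0.000145, in a test that 15.1% of features passed. H9 and HS360 differed by 0.07, with an interval from -0.12 to 0.25, in a contrast where 3.34% of features passed.

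The highest CA2 value, 8.21, came from HS401 in normoxia at 7 d, whose hypoxic partner read 7.79. The differences in the 7 d pairs were -0.14, 0.02 and -0.42 in H9, HS360 and HS401. Over the mean of the 3 time points hypoxia differed by -0.03 ± 0.07 (interval -0.18 to 0.12). Each line is 1 derivation, so what distinguishes HS401 from H9 and HS360 cannot be told apart from its culture history.

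**Figure D3:**
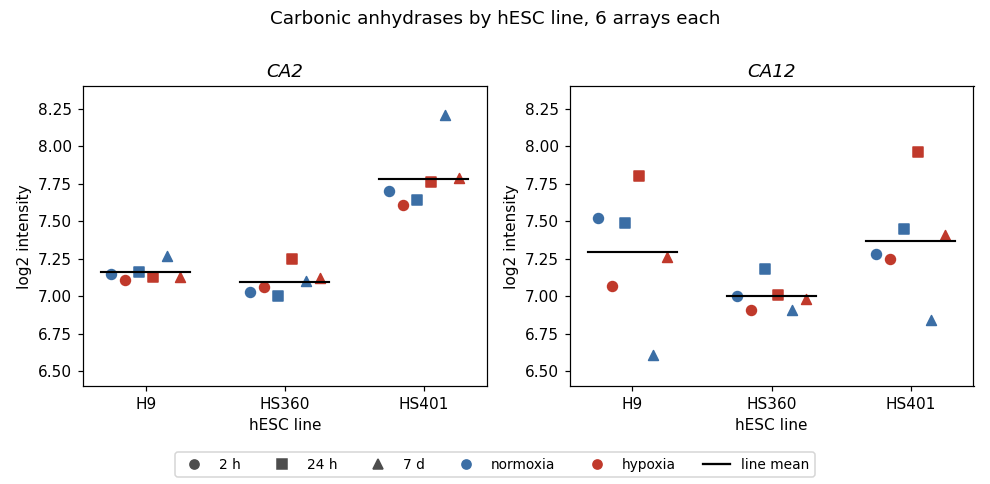
Log2 intensity of CA2 (left) and CA12 (right) on the 6 arrays of each hESC line, with symbols for the time point, blue for normoxia and red for hypoxia, and a bar for the line mean. The HS401 arrays of CA2 all lie above 7.6 and those of H9 and HS360 all below 7.3, while in CA12 the 3 lines overlap.

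Among the other members the F test over lines had an adjusted p of 0.0957 for CA12, 0.168 for SLC16A3, 0.288 for BSG, 0.472 for SLC16A1 and 0.502 for SLC4A7. CA12 was lowest in HS360, at 6.91 to 7.18, a narrow range, while H9 spanned 6.61 to 7.80. The difference of CA12 between HS360 and HS401 was -0.37 ± 0.12 (adjusted p = 0.0595), with an adjusted p of 0.0323 after a second quantile normalization, 0.0373 after median centring and 0.0361 with only features at or above the median level. The line by oxygen interaction gave an adjusted p of 0.999 for all 6 genes, and 0 of 23536 features passed, with 374 at an unadjusted p under 0.05 in limma.

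SLC4A7, which loads the cell with bicarbonate, showed wide scatter and no common direction. At 2 h it read 9.14, 9.01 and 9.34 under normoxia and 9.31, 9.10 and 8.61 under hypoxia in H9, HS360 and HS401. At 24 h it read 9.04, 9.18 and 9.51 against 9.68, 8.92 and 9.13. H9 was thus higher in hypoxia at both times and HS401 lower, by 0.73 at 2 h and 0.38 at 24 h.

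At 7 d SLC4A7 lay between 9.04 and 9.25 on all 6 arrays. The mean difference was -0.07 ± 0.11, with a 95% interval from -0.31 to 0.18. Its 4 highest values, 9.31 to 9.68, came from arrays with a low lower quartile, whose median was 9.34 (9.13 to 9.68) against 9.10 (8.61 to 9.25) in the other 13. Its contrasts were also refitted with the lower quartile as a covariate, and are given below where a result changed. The part of that array property in the SLC4A7 levels themselves was not tested.

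**Figure D4:**
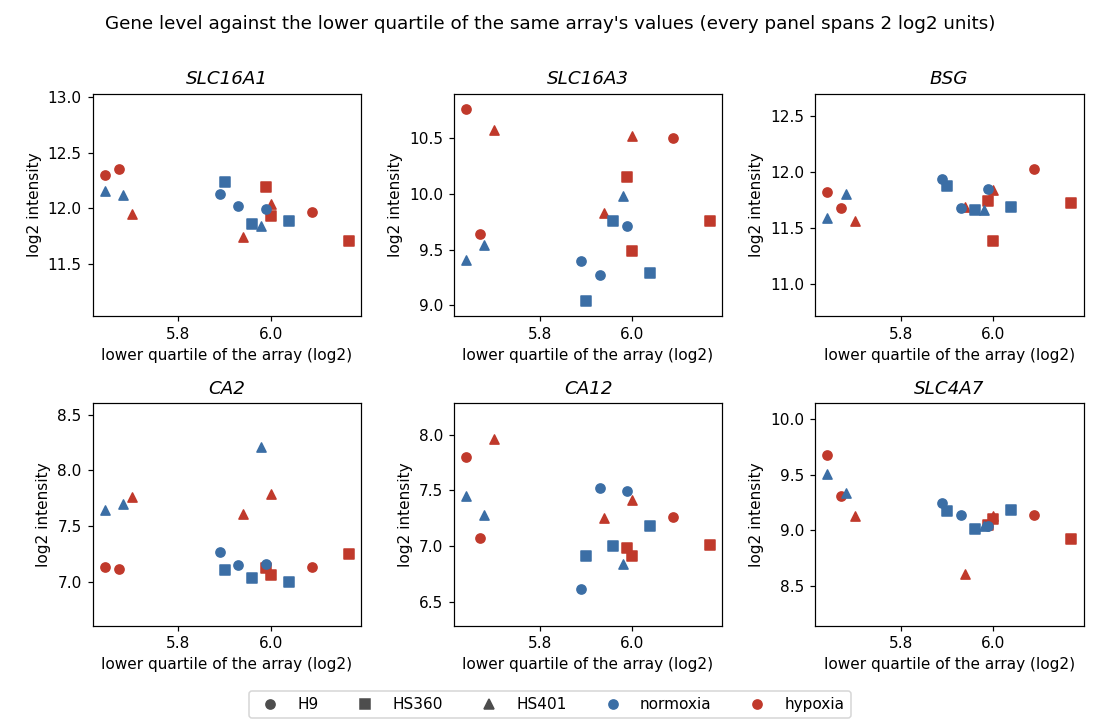
Log2 intensity of each gene against the lower quartile of all log2 values of the same array (18 arrays, symbols for the line, blue for normoxia and red for hypoxia). The 5 arrays at 5.64 to 5.70 hold the 2 highest SLC16A1 and the 4 highest SLC4A7 values, and the 7 d SLC16A3 pairs lie to the right of them.

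The genes whose pattern over the 18 arrays was most like each member were found by Pearson's r on log2 values with the line mean removed, among 10679 named features at or above the median level. For SLC16A3 these were PKM (r = 0.928), SLC26A6 (0.883) and MAML3 (0.883), and 29 features reached 0.8. For SLC16A1 they were DEPDC1 (0.948), NDC80 (0.945) and NUP155 (0.936), with 239 features at 0.8 or above. For BSG they were YIF1B (0.873), TMEM259 (0.87) and RETREG3 (0.869).

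For CA2 the most alike were BTF3 (0.854), APOA1 (0.84) and ARMC10 (0.835), for CA12 CXCL8 (0.87), TEK (0.837) and SPATA13 (0.824), and for SLC4A7 DPY19L1 (0.863), ARSK (0.859) and ZNF589 (0.843). The 18 points share lines and array properties, so these values describe the arrays only. Between members the highest r was 0.723, for SLC16A1 with SLC4A7, and SLC16A3 with CA12 had 0.414. SLC16A3 with its chaperone BSG had 0.145 and SLC16A1 with BSG 0.085.

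The wider pathway was described with lists of related genes, by counts past the study's thresholds. Of the 9 monocarboxylate transporters and chaperones only SLC16A3 passed, at 24 h, at 7 d and over the mean. The list median over the mean of the 3 times was -0.03, beside 0.00 for all features. SLC16A7 (MCT2) differed by -0.16 ± 0.10 (adjusted p = 1), and the accessory proteins EMB and NPTN by -0.09 ± 0.17 and -0.05 ± 0.07. Of the 10 other members of the SLC16 family none passed in an oxygen contrast, and SLC16A10, a carrier of aromatic amino acids, differed by 0.15 ± 0.07 over the mean. The largest oxygen difference in that list was -0.55 ± 0.15, for SLC16A13 at 7 d (limma, adjusted p = 0.376). It was lower in hypoxia in all 3 lines and short of 1.5-fold.

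Of 14 genes that make or use lactate and pyruvate, LDHA, the subunit of lactate dehydrogenase that favours lactate formation, passed the study's thresholds at 24 h, and no other gene of the list passed at any time. There it read 11.90, 11.56 and 11.81 under normoxia and 12.43, 12.06 and 12.66 under hypoxia in H9, HS360 and HS401, with no overlap, as for 1.63% of all features, while 0.421% passed the study's thresholds. The difference was 0.63 ± 0.13 (adjusted p = 0.394). The higher hypoxic values, those of H9 and HS401, lie on arrays with a low lower quartile, and the part of that array property was not tested. At 2 h it was 0.20 ± 0.13 and at 7 d 0.17 ± 0.13, and the mean was 0.33 ± 0.08 (adjusted p = 0.228). GPT2, which makes alanine from pyruvate, differed by 0.15 ± 0.08 over the mean.

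None of the 15 carbonic anhydrases passed in an oxygen contrast. CA9, a well known HIF target in tumours, differed by 0.08 ± 0.11, with normoxic values between 6.82 and 7.46 and hypoxic values between 6.80 and 7.65. CA3 differed by 0.34 ± 0.10 (adjusted p = 0.525) and CA13 by 0.14 ± 0.06. The mean levels of CA9, CA3 and CA13 stood at percentiles 50.4, 39.1 and 26.5 of all features, so their signal over background is uncertain. Nor did any of 10 SLC4 bicarbonate transporters, 17 measured sodium-proton exchangers and cofactors, 25 vacuolar proton pump subunits or 12 proton channels and receptors pass. Since 0.085%, 0.421%, 0.867% and 0.183% of all features passed at 2 h, 24 h, 7 d and over the mean, a count of 0 in lists of this size does not set them apart from other genes. Those named by the smallest p over the mean were SLC4A8 (0.14 ± 0.08) and SLC4A2 (0.06 ± 0.06), SLC9A5 (0.13 ± 0.08) and SLC9A8 (-0.13 ± 0.09), ATP6V0B (-0.18 ± 0.07) and ATP6V1H (-0.13 ± 0.08), and HVCN1 (-0.15 ± 0.08) and OTOP1 (0.11 ± 0.13).

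The 6 hypoxia reference genes (DDIT4, BHLHE40, HK2, PFKFB4, PDK1 and INSIG2), which were picked from earlier results of these arrays and so mark the size of a response here rather than test it, differed by 0.80 to 1.53 over the mean. At 2 h their median difference was 1.03, where SLC16A3 measured 0.13. At 24 h and 7 d the medians were 1.31 and 1.12, where SLC16A3 measured 0.89 and 0.92.

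With time in culture SLC16A6, a carrier of ketone bodies, fell by 1.59 on the log2 scale in normoxia from 2 h to 7 d (SE 0.21, adjusted p = 0.00495), where 0.795% of features passed lower, and by 1.14 in hypoxia (adjusted p = 0.0125), where 1.64% did. In normoxia it read 6.61, 7.46 and 7.04 at 2 h and 5.27, 5.95 and 5.13 at 7 d in H9, HS360 and HS401, with no overlap, as for 4.42% of features in that direction. Of the 17 fibroblast markers 11 passed lower in normoxia and 6 in hypoxia, with list medians of -1.56 and -0.90, and their part was not tested. In hypoxia 5 other genes of the lists passed after adjustment from 2 h to 7 d, where 3.23% of all features did: SLC4A8 (0.73) and SLC9A5 (0.62) were higher and GPT2 (-0.59), ATP6V0D1 (-0.48) and ATP6V0E1 (-0.61) lower. They were 1 of 10 SLC4 transporters, 1 of 17 exchangers and cofactors, 1 of 14 lactate and pyruvate genes and 2 of 25 pump subunits. Counts this small do not set the lists apart from other genes.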

How the data were processed

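Levels of 23536 genes were measured on 18 Human Exon 1.0 ST arrays, 1 per hESC line, oxygen level and time point. The deposited intensity values were made by the authors by RMA, run in Chipster, which corrects background, quantile-normalizes and summarizes over probes, after the probes had been re-annotated with a custom CDF to Entrez genes. Versions are not given in the sources used here. The values are on the linear scale, and all of their log2 values fall on steps of 0.01. RMA normalization assumes a like distribution on every array, so a change shared by most genes would be lost. Array medians lay between 131.6 and 160.9. Precision is limited by 3 arrays per group.

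Of all features 20727 were named from the platform annotation and 637 more by their Entrez number in RefSeq (SLC16A1 and SLC16A3 among these), and 2172 had no name. CHP3, TDGF1, CGB3 and XAGE2 of the lists matched no feature. Log2 values were fitted with limma 3.58.1 in R 4.3.3, with 6 group means and the line as a fixed block (10 residual and 4.24 prior degrees of freedom), two-sided, with Benjamini-Hochberg adjustment over all features at 0.05. No filter on low levels was applied. The study's thresholds (fold change above 1.5, p below 0.01 before adjustment) were used beside this, and its methods name no block. The pairing of cultures comes from the shared line: after removal of group means, the values of the 2 cultures of a line and time correlated above 0.1 in 8 of 9 pairs (-0.005 to 0.776). Each group has 1 array per line and the line is a block, so differences in mean level between lines are removed from the spread. The p-values of oxygen and time contrasts measure how far those differences vary from line to line, together with array noise. Those of the line contrasts rest on the same residual spread of arrays within lines, not on a spread between independent lines. Within-line replicates were not part of the arrays.

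The fit was tested on simulated data. Members and lists were chosen with earlier results of these data known. Named were all 6 members, from each list the genes past a threshold in an oxygen contrast (or the 2 with the smallest p over the mean), and the 3 features most like each member. 1 gene that this rule names is not reported here. SLC16A6, SLC16A13, EMB, NPTN, CA9 and the genes that changed with time were named after their values were seen. Alternatives were no block, a random block, pairs as a block, single time points, a second quantile normalization, median centring, a filter on level, trend and robust variance, the lower quartile as a covariate, and leaving out the 5 arrays or each line.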

Additional observations from a re-analysis of the deposited data

Results flagged for a closer look

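CA12 had opposite signs of the oxygen effect at 2 time points. At 2 h all 3 lines were lower in hypoxia (-0.45, -0.09 and -0.03 in H9, HS360 and HS401), and at 7 d all 3 were higher (0.65, 0.07 and 0.57). The effect at 7 d exceeded that at 2 h by 0.62, with a 95% interval from 0.10 to 1.14 (limma, adjusted p = 0.997). The difference thus did not hold over all features.

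CA2 had opposite signs in 2 lines. In H9 all 3 time points were lower in hypoxia (-0.04, -0.03 and -0.14 at 2 h, 24 h and 7 d) and in HS360 all 3 were higher (0.03, 0.25 and 0.02). The mean effects of these lines differed by 0.17. The F test of the line by oxygen terms gave an adjusted p of 0.999.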

How the results depend on the processing

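SLC16A3 was higher in hypoxia at 24 h, at 7 d and in the mean under every alternative run, by 0.33 to 1.11, 0.82 to 1.11 and 0.41 to 0.75. It stayed past the study's thresholds in 10 of 13, 12 of 13 and 10 of 12 alternatives. Without the 5 arrays of low lower quartile 0 members passed at 24 h and 0 over the mean. With each line left out in turn, 0 to 1 members passed at 24 h (SLC16A3 failed without H9, at 0.82, and without HS401, at 0.76), 0 to 2 at 7 d (SLC16A3 at 0.83 failed without H9, and CA12 passed without HS360, at 0.61) and 0 to 1 over the mean (SLC16A3 at 0.55 failed without H9). An adjusted p under 0.05 over the mean was reached by 1 member, SLC16A3, with only features at or above the median level and with the lower quartile as a covariate.

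For time points compared within an oxygen level 1 member, SLC16A3 in hypoxia at 7 d against 2 h, had an adjusted p under 0.05 after a second quantile normalization (0.0459) and with only features at or above the median level (0.0426). For line differences 2 members passed with the lower quartile as a covariate, CA2 and SLC16A1, and 0 to 1 with a line left out, 0 without HS401, which leaves only H9 against HS360. Of the pairs of members 0 passed with any line left out, against 5. With a line left out the floor of the exact p keeps the 5 SLC16A3 comparisons alone from passing. This count thus does not test dependence on a line. Centring on the array median leaves the differences between members unchanged by construction.

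Directions reversed only for differences that had not passed, and the cause was not tested. SLC16A1 at 2 h, 0.0067, became -0.0081 after a second quantile normalization and -0.014 without the 5 arrays, and over the mean 0.018 with the covariate. Without the 5 arrays SLC16A3 at 2 h was -0.030, BSG at 24 h 0.033, and CA12 -0.22 at 24 h and -0.0064 over the mean. BSG at 24 h was 0.017 after median centring, and SLC4A7 at 7 d 0.085 with the covariate. With a line left out SLC16A1 ranged from -0.16 to 0.20 at 2 h, from -0.20 to 0.065 at 24 h and from -0.092 to 0.053 over the mean. BSG ranged from -0.025 to 0.14 at 7 d and from -0.058 to 0.017 over the mean, CA2 from -0.10 to 0.015 over the mean, and SLC4A7 from -0.32 to 0.13 at 2 h and from -0.22 to 0.068 over the mean.

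The fit with no replicate block gave SLC16A3 an adjusted p of 0.407 over the mean, with 9 pairs of line and time as a replicate block 0.0879, and with the line as a random replicate block 0.11. The count of members past the study's thresholds was 1 at 24 h, at 7 d and over the mean under all 3. Pairs as a block and single time points were not run for the time and line comparisons, which they do not allow. CA2 and CA12 lay near the median level of all features, so their signal over background is less certain than that of the other 4 genes. Among the related genes SLC16A6, SLC16A7, CA3, CA13 and OTOP1 lay below that median, so the same caution applies.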
